A study of Mus musculus with 8 samples.

Results

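The translation initiation factor genes were the rows of the count table whose symbol begins with Eif and a digit, apart from the 4 eIF2 kinase genes (Eif2ak) and Eif2s3y, that had a summed count above 0. Of 22549 genes in the table, 58 symbols matched the prefix and 52 remained after these exclusions, with Eif4e1b left out for a count of 0 in every library. They fell into 5 genes of the eIF1 group, 5 of eIF2, 5 of eIF2B, 13 of eIF3, 12 of eIF4, 3 eIF4E-binding proteins (4E-BPs), 4 of eIF5 and 1 of eIF6. The symbol also took in 4 Eif2c genes, an older name of the Argonaute genes Ago1 to Ago4. Argonautes bind small RNAs and are no initiation factors, so they were counted under the rule and described apart.

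RNA sequencing measured expression in mouse invariant natural killer T (iNKT) cells, lymphocytes that recognise lipids on CD1d, in 4 libraries from skin and 4 from spleen. Both groups had the genotype CCR10+/EGFP, with 1 EGFP allele at the locus of the chemokine receptor gene Ccr10, and no group without this allele was compared. The labels used here give no age, sex, treatment or sorting gate. Nothing says that the libraries came from separate animals, so each p-value measures only how these libraries vary, and that variation may be technical.

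Initiation brings the small ribosomal subunit to the start codon of an mRNA. eIF1 and eIF1A hold the subunit in a scanning state, eIF2 carries the initiator tRNA in its GTP-bound form, and eIF2B recharges eIF2 with GTP. eIF3 is the large scaffold on the small subunit, the eIF4 group recognises the cap and unwinds the mRNA, and eIF5, eIF5B and eIF6 act around GTP hydrolysis and joining of the large subunit. In T cells, cap recognition and eIF2 activity are known points at which activation, nutrients and stress set the rate of protein synthesis.

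The start codons of these mRNAs are shown first because eIF1 and eIF5 set how strictly a start codon is read. A start codon is read best with a purine 3 bases before it and a G directly after it. Sequences are from principal transcripts of GENCODE M21 (GRCm38), 5′ to 3′, with the start codon in capitals.
Eif1: gaatcgtatcgtATGtccgc
Eif1b: cactagtgtcgcATGtccac
Eif3b: cagcgcgggcccATGcagga
Eif5: taataagccaaaATGtctgt
Eif4e3: ccggcggagaacATGgcgct
Eif4e2: ggcggcaagaggATGaacaa
Eif4g3: gcccctcagacaATGaactc
Eif2b1: ctcgaggaagccATGgagga
Among 49 members with such a sequence, 43 had the purine, 22 had both features, and 3 had neither: Eif1, its close paralog Eif1b, and the eIF3 subunit gene Eif3b. Over 20279 genes read the same way, 84.5% had the purine, 41.5% had both features and 7.4% had neither.

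Promoters are shown for Eif1 and Eif5, which stood higher in every skin library than in any spleen library, and for Eif4g3, which had no count in skin. Each is the 250 bases before the start of the gene, 5′ to 3′, from RefSeq on GRCm38.p6, a later build than the mm9 named for the counts. Capitals mark matches on either strand to CCAAT, to the GC box GGGCGG, to the E-box CACGTG, to the cyclic AMP response element TGACGTCA, or to the TATA box TATAAA.
Eif1 promoter, chr11:100319699-100319948, plus strand: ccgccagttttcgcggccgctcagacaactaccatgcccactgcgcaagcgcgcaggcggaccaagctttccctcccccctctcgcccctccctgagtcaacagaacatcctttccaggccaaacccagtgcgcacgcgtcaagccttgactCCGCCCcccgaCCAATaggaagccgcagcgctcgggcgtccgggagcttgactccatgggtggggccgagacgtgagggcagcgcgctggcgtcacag
Eif5 promoter, chr12:111537851-111538100, plus strand: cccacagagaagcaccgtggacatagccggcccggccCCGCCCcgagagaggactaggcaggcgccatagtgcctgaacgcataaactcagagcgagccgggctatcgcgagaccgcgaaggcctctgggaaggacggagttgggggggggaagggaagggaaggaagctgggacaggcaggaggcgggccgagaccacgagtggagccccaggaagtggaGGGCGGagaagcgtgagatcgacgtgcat
Eif4g3 promoter, chr4:137993205-137993454, plus strand: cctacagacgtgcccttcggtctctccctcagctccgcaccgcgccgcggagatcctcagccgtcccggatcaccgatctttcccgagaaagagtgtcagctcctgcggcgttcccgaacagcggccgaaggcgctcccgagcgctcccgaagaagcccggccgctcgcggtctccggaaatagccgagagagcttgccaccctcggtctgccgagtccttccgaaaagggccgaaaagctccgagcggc
Eif1 had 1 GC box and 1 CCAAT, Eif5 had 2 GC boxes, and Eif4g3 had no match to any of the 5 motifs. Eif4e2 and Eif2b1 stood lower in every skin library than in any spleen library. Their promoters, not printed here, had 1 and 3 GC boxes, so the GC box did not go with the direction of the difference. The GC box was in 31 of the 41 member promoters in RefSeq's table and in 32.9% of all 27025 promoters. CCAAT was in 11 of 41 (34.5% of all), the E-box in 7 (6.0%), the TATA box in 3 (13.0%) and the cyclic AMP response element in 0 (1.6%). A match describes the letters in this window and shows no bound factor.

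Libraries held 7191131 to 9791973 expected counts. A count above 0 was found for 5302 to 6012 genes in a skin library and for 6415 to 10094 in a spleen library, and 41 to 43 of the 52 members had a count in a skin library against 42 to 51 in a spleen library. Of the genes tested, 26.1% to 32.6% stood at 0 in a skin library and 0.78% to 22.4% in a spleen library. Summed markers of keratinocytes, the main cells of the epidermis, ran from 181 to 953 CPM in skin and from 0 to 29.5 CPM in spleen, where CPM are expected counts scaled to a common library size. Of the 10, Dsp was at 0 in all 8 libraries, and Krt5, Krt14, Krt15, Perp, Lgals7 and Krtdap were at 0 in all spleen libraries. Krt14 was also at 0 in skin replicates 2 and 4. Perp (76.0 to 198 CPM) and Sfn (35.4 to 165 CPM) had counts in all 4 skin libraries, and Perp was called higher (edgeR adjusted p = 0.0328). Erythroid markers summed to 0 to 2.12 CPM in skin and 111 to 274 CPM in spleen. Among them Hba-a1 was called lower in skin (edgeR adjusted p = 0.0473). Perp was tested because of its skin counts alone and Hba-a1 because of its spleen counts. Their p-values are not free of that selection. B cell markers summed to 0 and to 31.5 to 166 CPM and fibroblast markers to 0 to 31.9 and 0 CPM. Macrophage and dendritic cell markers summed to 423 to 652 and 131 to 455 CPM. These markers did not move together. Fcer1g ran from 175 to 354 CPM in skin and from 25.7 to 108 CPM in spleen. Csf1r, Tyrobp and H2-Eb1 were at 0 in all skin libraries, and Lyz2 and H2-Ab1 had lower means in skin. The 8 iNKT and T cell genes, among them Cd3e, Cd3g and Zbtb16, all had counts in both tissues and summed to 4118 to 4647 and 3897 to 4941 CPM. Of these 8, Cd3d, a chain of the T cell receptor complex, was lower in skin (470.4 ± 83.9 against 1112 ± 226 CPM, edgeR adjusted p = 0.025). Cd44, an adhesion receptor of activated T cells, was higher (837 ± 204 against 211 ± 50.7 CPM, edgeR adjusted p = 0.00808). The part of other cells in the results below was not tested. In bulk RNA, fewer cells of a type and less RNA per cell cannot be told apart.

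Skin libraries held more Eif1 and Eif4e3 transcript than spleen libraries, and no Eif4g3 transcript was counted in them. The Eif1 call held with any 1 library left out, and those of Eif4e3 and Eif4g3 did not. Eif1, Eif4e3 and Eif4g3 were the only members called of 47 tested with edgeR's quasi-likelihood test at an adjusted p under 0.05. Eif4g3 was tested because of its spleen counts alone. The 2 higher members are 4.26% of the members tested, beside 1.85% of all 6920 genes tested. The 1 lower member is 2.13%, beside 3.58% of all genes. Such small counts do not set the group apart from the table. The median log2 fold change (skin over spleen) was 0.08 over the 47 members and -0.29 over all genes tested, with 53.2% and 42.2% above 0.

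The remaining 5 members, Eif2b3, Eif4enif1, Eif4ebp3, Eif5a2 and the Argonaute gene Eif2c4, had counts in too few libraries to be tested. Tissue values did not overlap for 6 members: skin stood above spleen for Eif1, Eif5 and Eif4e3, and below it for Eif4e2, Eif4g3 and Eif2b1. These are 6.38% of members in each direction, beside 6.11% of all genes with skin above and 13.4% with skin below. At an unadjusted p under 0.05, 4 members were higher (8.51%, beside 5.10% of all genes) and 2 lower (4.26%, beside 7.33%).

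**Figure D1:**
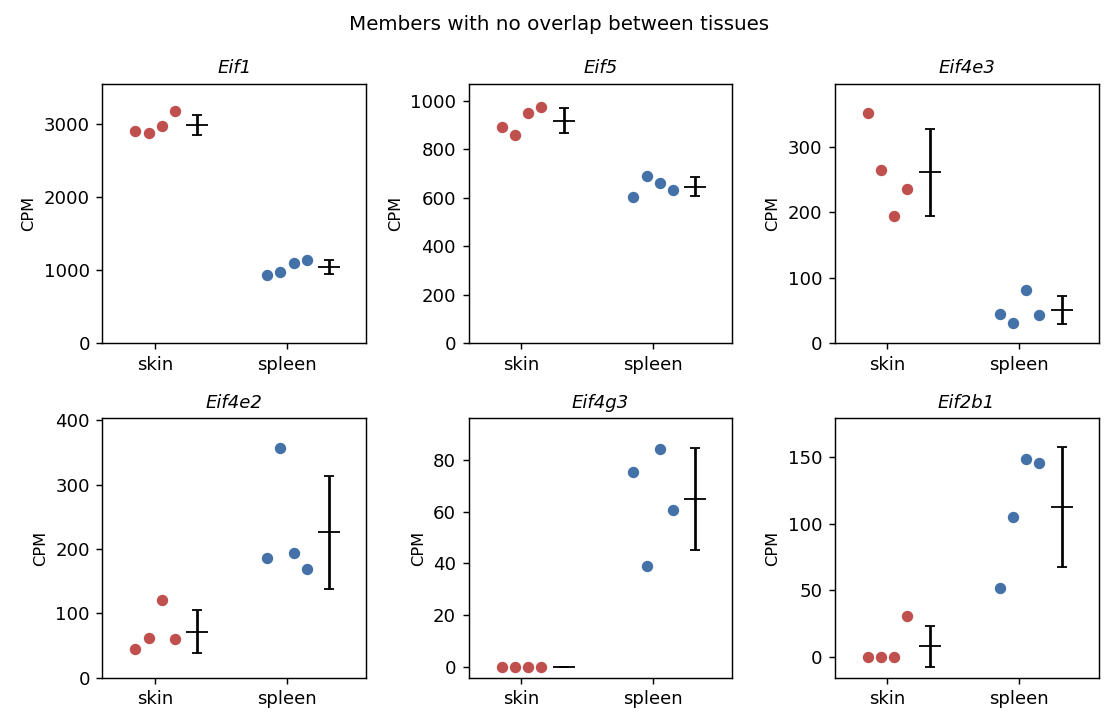
CPM (y axes, linear, each with its own range) of the 6 members whose skin and spleen values did not overlap, with 1 point per library and the mean ± SD (n = 4) in black beside them. Eif1 lay between 2868 and 3173 CPM in skin and between 931 and 1139 CPM in spleen, while Eif4g3 had no count in any skin library.

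Eif1 encodes the factor that keeps the scanning ribosome from settling on a wrong start codon. It stood at 2906, 2868, 2972 and 3173 CPM in skin replicates 1 to 4. In spleen replicates 1 to 4 it stood at 931, 977, 1089 and 1139 CPM. The 4 skin libraries lay close together and every one was well above every spleen library. The skin mean was 2980 ± 136 CPM and the spleen mean 1034 ± 96.7 CPM (SD, n = 4 each), 2.88-fold apart (edgeR log2 fold change 1.53 ± 0.12 SE, adjusted p = 0.000663). The call held with any 1 library left out (edgeR adjusted p from 0.00146 to 0.00805). DESeq2 gave the same direction without a call (log2 fold change 1.59, adjusted p = 0.139). RefSeq names 3 Eif1 pseudogenes, none with a row in the table, and reads of such copies cannot be told apart from those of the gene here.

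The other genes of the eIF1 group did not share this difference beyond their spread. Eif1b, whose protein is nearly the same as eIF1, stood at 0, 273, 0 and 34.3 CPM in skin and at 110.0, 48.6, 84.8 and 117 CPM in spleen. Only skin replicate 2 was above the spleen libraries. Eif1 made up 91.3% to 100% of the expected counts of the pair in skin and 89.4% to 95.3% in spleen, so the ranges overlapped. Eif1a and Eif1ax encode forms of eIF1A, the partner of eIF1 on the small subunit. The skin mean of Eif1a was 218 ± 36.5 CPM and its spleen mean 97.6 ± 71.4 CPM, where replicate 2 had none (edgeR adjusted p = 0.998). Eif1ax stood at 75.5 ± 72.1 and 79.0 ± 39.6 CPM and Eif1ad, an eIF1A domain protein, at 139 ± 80.6 and 104 ± 89.5 CPM. Neither was called.

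Per kilobase of transcript, the scale on which genes can be compared, Eif1 was the most abundant member in both tissues, at 2254 ± 103 CPM per kb in skin and 782 ± 73.2 in spleen. Eif5a was second in both, at 935 ± 380 and 619 ± 78.9 CPM per kb. Eif4a3 followed at 474 ± 222 in skin and 348 ± 55.7 in spleen, and there its neighbour in the order, Eif3k, stood at 362 ± 182, no further away than the spread. Lengths are of the longest principal GENCODE M21 transcript, not of the authors' annotation, and another length would change this order.

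**Figure D2:**
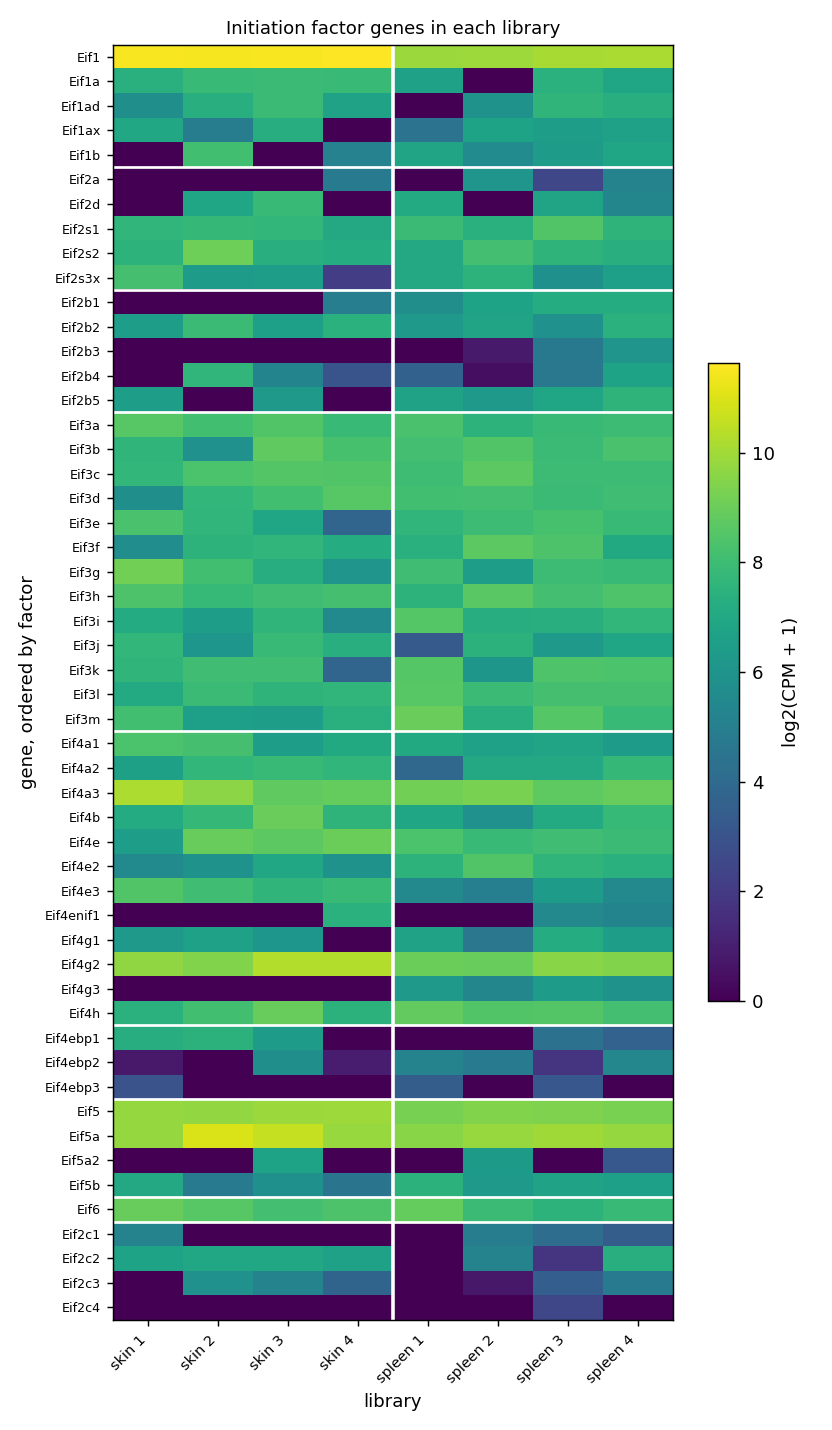
Level of all 52 members (rows, ordered by factor, white lines between groups) in each of the 8 libraries (columns), as log2(CPM + 1) on the colour scale, where dark cells are at or near 0. The 13 eIF3 genes had counts in every library, while eIF2B, 4E-BP and Argonaute genes were at 0 in many.

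The genes of eIF2, the carrier of initiator tRNA, did not pass the test with edgeR, DESeq2 or limma-voom, and none had an unadjusted p under 0.05. Eif2s1 encodes the alpha subunit, whose phosphorylation halts general initiation under stress. It stood at 204, 215, 208 and 129 CPM in skin and at 239, 167, 350.3 and 187 CPM in spleen, with overlapping ranges (edgeR log2 fold change -0.32 ± 0.41 SE, adjusted p = 0.998). Eif2s2, the beta subunit, stood at 185, 528, 156 and 148 CPM in skin and at 128, 283, 188 and 161 CPM in spleen. Skin replicate 2 alone lifted the skin mean, and the log2 fold change went from 0.42 to -0.26 without it. Eif2s3x, the gamma subunit, ran from 3.39 to 295 CPM in skin and from 55.9 to 183 CPM in spleen. Eif2a and Eif2d, which deliver initiator tRNA in other ways, had no count in 3 and 2 skin libraries and in 1 spleen library each.

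Transcripts of eIF2B, the exchange factor of eIF2, were scarce in skin for several subunits. Eif2b1, the alpha subunit, stood at 0, 0, 0 and 30.5 CPM in skin and at 52.0, 105, 149 and 146 CPM in spleen. All spleen libraries were above the single skin library with a count, and the gene was not called (edgeR log2 fold change -3.88 ± 2.61 SE, adjusted p = 0.797). It was called without skin replicate 4, the only skin library with a count (edgeR adjusted p = 0.0499). With limma-voom it was called too (adjusted p = 0.0257), as were 7.23% of all genes in that direction. Eif2b1 was tested because of its spleen counts, so these p-values are not free of that selection. Eif2b3 had no count in skin and 0 to 65.6 CPM in spleen, in too few libraries for the edgeR test. DESeq2 called it lower, as it did 12.8% of all genes. Eif2b5, the catalytic epsilon subunit, stood at 89.8, 0, 74.2 and 0 CPM in skin and at 104, 78.5, 117 and 186 CPM in spleen. Eif2b2, the beta subunit and the most abundant of the 5 per kilobase, stood at 88.7, 239, 94.3 and 171 CPM in skin and at 75.5, 109, 57.9 and 172 CPM in spleen. Eif2b4, the delta subunit, stood at 61.3 ± 94.9 and 35.4 ± 47.9 CPM. The last 3 genes overlapped between the tissues and were not called. More genes stand at 0 in skin libraries in general, as given above.

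All 13 eIF3 genes had a count in all 8 libraries. None was called by edgeR, DESeq2 or limma-voom, and none had an unadjusted p under 0.05 in any of these. On the log2 scale 4 stood above 0 and 9 below, with a median of -0.25 and a range from -1.02 (Eif3m) to 0.83 (Eif3j), beside the median of -0.29 over all genes tested. The median over the 13 genes was 167 to 232 CPM in skin libraries and 239 to 272 CPM in spleen libraries. Subunits under 100 CPM numbered 2, 4, 1 and 4 in skin libraries and 1, 2, 1 and 0 in spleen libraries, and these counts overlapped. Eif3k, the most abundant of the group per kilobase, stood at 194, 265, 264 and 12.7 CPM in skin and at 378, 70.9, 345 and 326 CPM in spleen. Both tissues had 1 library far below the other 3. Eif3c, with the highest mean CPM of the group, stood at 209.8, 325, 362 and 349.8 CPM in skin and at 262, 418, 249.7 and 252 CPM in spleen. Eif3a, the largest subunit, stood at 311 ± 69.8 and 244 ± 52.2 CPM and Eif3h at 277 ± 48.8 and 305 ± 95.6 CPM. Further from each other were the means of Eif3i (117 ± 64.7 against 223 ± 103 CPM) and Eif3f (145 ± 66.9 against 261 ± 132 CPM). The lowest single values were Eif3j at 8.86 CPM in spleen replicate 1 and Eif3k and Eif3e at 12.7 and 12.8 CPM in skin replicate 4. Eif3l (192 ± 43.8 against 302 ± 60.7 CPM) and Eif3m (156 ± 85.3 against 316 ± 153 CPM) had the smallest p-values of the group (edgeR adjusted p = 0.586 and 0.57).

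**Figure D3:**
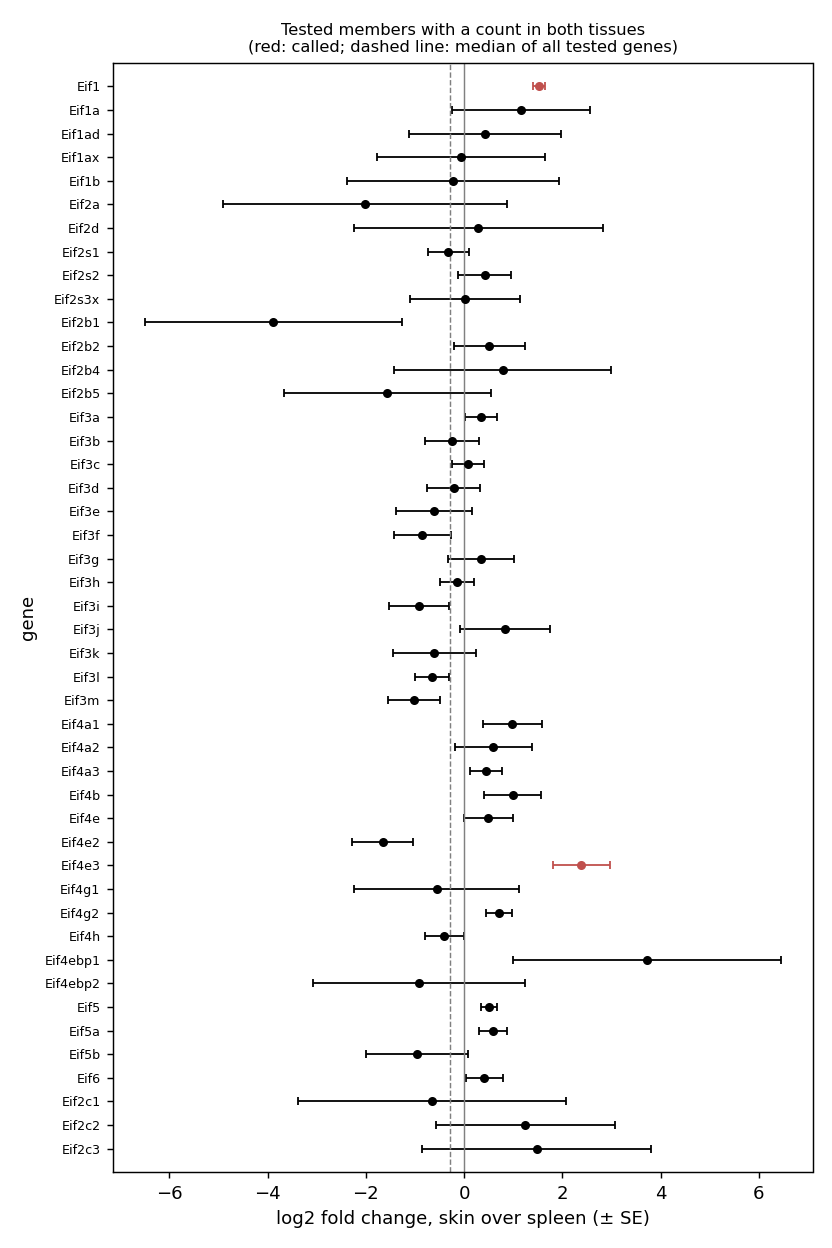
Log2 fold change of skin over spleen (x axis, ± SE) for the 46 tested members with a count in both tissues (y axis), called members in red, with a solid line at 0 and a dashed line at the median of all tested genes (-0.29). Eif1 (1.53) and Eif4e3 (2.39) are called, and genes with counts in few libraries have wide errors. Eif4g3 is not drawn because it had no count in skin.

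Among the cap-binding genes of the eIF4E family, only Eif4e3 was called. Eif4e encodes the cap-binding subunit that joins eIF4G. Eif4e2 (4EHP) encodes a relative that binds the cap without eIF4G and is known to repress translation, and Eif4e3 another cap-binding relative. Eif4e3 stood at 351, 264, 194 and 235 CPM in skin and at 44.1, 31.2, 81.2 and 43.3 CPM in spleen. The lowest skin library was above the highest spleen library, and the gene rose 5.23-fold (261 ± 66.5 against 49.96 ± 21.7 CPM, edgeR log2 fold change 2.39 ± 0.58 SE, adjusted p = 0.0481). That p is close to the threshold, and the call was lost with any 1 of the 8 libraries left out (edgeR adjusted p from 0.0787 to 0.149).

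Eif4e2 stood at 45.1, 61.4, 120.1 and 59.6 CPM in skin and at 185, 357, 194 and 168 CPM in spleen. Every skin library was below every spleen library, and the gene was not called (71.5 ± 33.2 against 226 ± 87.9 CPM; edgeR log2 fold change -1.66 ± 0.61 SE, adjusted p = 0.231). Eif4e stood at 87.6, 481, 410.2 and 521 CPM in skin and at 322, 236, 266 and 245 CPM in spleen. Skin replicate 1 was below all spleen libraries and the other 3 above them.

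As shares of the 3 genes' expected counts within a library, which need no scaling between libraries, Eif4e3 took 72.6%, 32.7%, 26.8% and 28.9% in skin. In spleen it took 8.006%, 4.996%, 15.03% and 9.479%. Eif4e2 took 7.31% to 16.6% in skin and 33.6% to 57.2% in spleen. Neither range overlapped between the tissues, while that of Eif4e did (18.1% to 63.8% in skin, 37.8% to 58.4% in spleen). These shares follow from the same counts as the levels above and are no separate evidence.

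**Figure D4:**
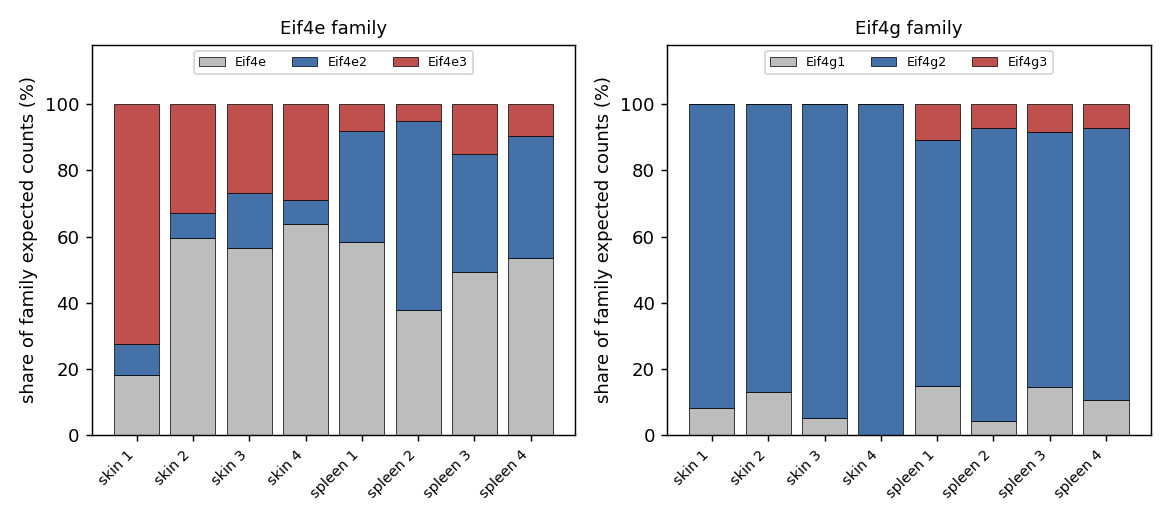
Share of the expected counts of the Eif4e family (left) and the Eif4g family (right) taken by each gene (y axis, %, stacked bars from 0) in each of the 8 libraries (x axis). Eif4e3 took 26.8% or more in skin and 15.03% or less in spleen, and Eif4g3 appears in spleen libraries only.

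Scaffold genes of the eIF4G family differed in level and in detection. Eif4g3 encodes eIF4GII, a scaffold that joins eIF4E, eIF4A and eIF3. No skin library had a count of it, and it stood at 75.6, 39.1, 84.5 and 60.6 CPM in spleen (mean 65.0 ± 19.9; edgeR adjusted p = 0.0473). The gene was tested because of its spleen counts alone, so its p is not free of that selection. The spleen mean was 168-fold above a floor of 3 counts per skin library, 0.387 CPM on average. That floor covers counting error only, and replicates varied far more, so it sets no limit on the skin level. Of 790 tested genes at 50 to 80 CPM in spleen with a count in all 4 spleen libraries, 64 (8.10%) were at 0 in all 4 skin libraries too. The call of Eif4g3 was lost with any 1 library left out (edgeR adjusted p from 0.0743 to 0.137).

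Eif4g2 (DAP5) encodes a scaffold that lacks the eIF4E-binding region. It stood at 844, 681, 1256 and 1267 CPM in skin and at 514, 489, 766 and 692 CPM in spleen. The ranges overlapped through skin replicate 2, and the gene was not called (1.65-fold, edgeR log2 fold change 0.72 ± 0.27 SE, adjusted p = 0.24). Eif4g1 (eIF4GI) stood at 75.1, 101, 68.1 and 0 CPM in skin and at 101, 23.6, 145 and 89.3 CPM in spleen. Eif4g2 took 87.1% to 100% of the expected counts of the 3 scaffold genes in skin and 74.4% to 88.6% in spleen, with overlap. Eif4g3 took 7.08% to 10.9% in spleen.

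The helicase genes and their helpers were not called. Eif4a1 and Eif4a2 encode the helicase of the cap complex and Eif4a3 the related helicase of the exon junction complex. Eif4a1 stood at 327, 290.2, 87.2 and 134 CPM in skin and at 132, 100.3, 109.9 and 82.8 CPM in spleen. Skin replicates 1 and 2 were high and the other 2 lay near the spleen values. Eif4a3, the most abundant of the 3 on the per-kilobase scale, stood at 1161, 787, 438 and 477 CPM in skin and at 564, 618, 425 and 493 CPM in spleen. Reads of these similar genes may have been split between them. Eif4b stood at 260.0 ± 161 and 131 ± 66.1 CPM and Eif4h at 278 ± 146 and 367 ± 72.1 CPM. Both encode helpers of the helicase.

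Among the 4E-BP genes, which encode repressors that release eIF4E when mTORC1 is active, Eif4ebp1 stood at 153, 179, 85.8 and 0 CPM in skin. In spleen it stood at 0, 0, 19.8 and 11.7 CPM. It was high in 3 skin libraries and absent from the counts of the fourth, and was not called (edgeR log2 fold change 3.72 ± 2.72 SE, adjusted p = 0.864). Eif4ebp2 stood at 14.0 ± 27.0 and 26.6 ± 17.1 CPM, and Eif4ebp3 stayed under 10 CPM in all libraries. Eif4enif1, the eIF4E transporter, had a count in 1 skin and 2 spleen libraries.

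Eif5 encodes the factor that makes eIF2 hydrolyse its GTP at the start codon. It stood at 891, 860.2, 949 and 974 CPM in skin and at 601, 689.9, 661 and 631 CPM in spleen. Both groups were tight and did not overlap (918 ± 52.2 against 646 ± 38.1 CPM), with a 1.42-fold difference that missed the threshold (edgeR log2 fold change 0.51 ± 0.16 SE, adjusted p = 0.126). With limma-voom it was called (adjusted p = 0.0202), beside 2.99% of all genes called higher by that test. Eif5a, which helps the ribosome through hard stretches of elongation, stood at 893, 2023, 1548 and 911 CPM in skin. It stood at 745, 916, 1020 and 879 CPM in spleen. The skin values fell into a high and a low pair, the lower of which overlapped the spleen values (edgeR adjusted p = 0.477). Eif5b, the GTPase of subunit joining, was not called, at 57.9 ± 49.3 and 112 ± 43.1 CPM. Eif6, which keeps free large subunits from joining, stood at 492, 387, 284 and 332 CPM in skin and at 468, 243, 182 and 229.7 CPM in spleen. Its ranges overlapped through spleen replicate 1 (edgeR log2 fold change 0.41 ± 0.37 SE, adjusted p = 0.955).

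All 52 members together summed to 12217 to 14651 CPM in skin libraries and to 9925 to 10877 CPM in spleen libraries. Without Eif1 the sums were 9043 to 11678 and 8948 to 9787 CPM, and the ranges overlapped. The Argonaute genes, with older symbols, showed no call. Eif2c2 (Ago2) stood at 108, 124, 123 and 101 CPM in skin and at 0, 35.5, 2.42 and 154 CPM in spleen. Its skin libraries were even and its spleen libraries were not.

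**Figure D5:**
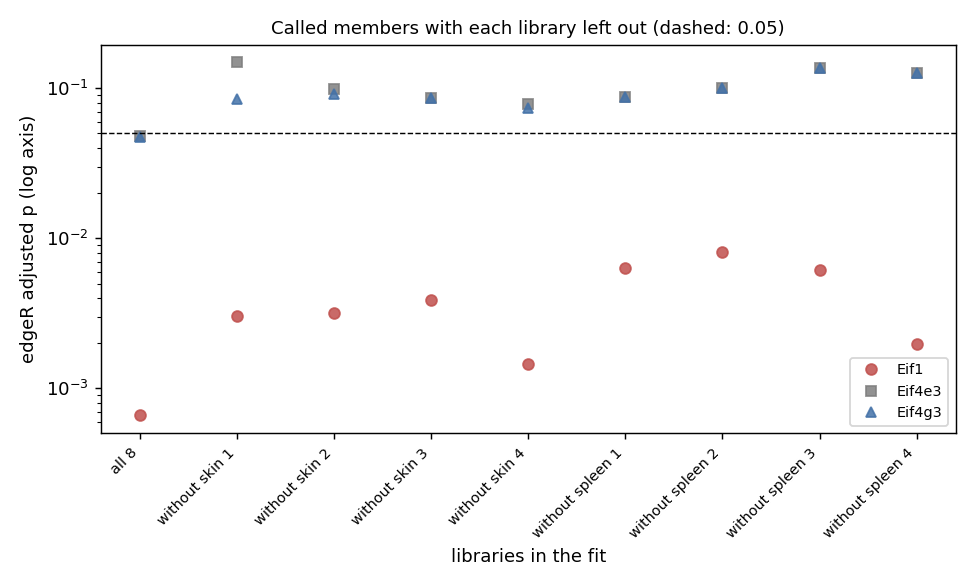
Adjusted p from edgeR (y axis, log scale) for the 3 called members in the fit of all 8 libraries and in the 8 fits that left out 1 library (x axis), with a dashed line at 0.05. Eif1 stayed between 0.00146 and 0.00805 in these 8 fits, and Eif4e3 and Eif4g3 rose above 0.05 in each of them.

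Genes around the initiation factors were given by 4 lists. With edgeR, which called 1.85% of all genes higher and 3.58% lower, 1 of 15 tested cofactors of initiation was higher and 0 lower (median log2 fold change -0.42). Counts this small set no list apart from the table. The higher one was Ddx3x, an RNA helicase that works with the cap complex, at 598, 328, 501 and 348 CPM in skin and 69.0, 106, 178 and 167 CPM in spleen (edgeR adjusted p = 0.0473). That call was lost with any 1 library left out and with DESeq2. Gnb2l1 (Rack1, on the small subunit) stood at 448 ± 169 and 586 ± 136 CPM, and Paip2 at 342 ± 89.9 and 354 ± 91.1 CPM.

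Of 9 genes of the integrated stress response tested with edgeR, 1 was higher and 0 lower (median 0.75). This pathway answers phosphorylated eIF2. The higher gene was Atf4, its main transcription factor, at 403, 653, 665 and 609.6 CPM in skin and at 177, 182, 214 and 164 CPM in spleen (edgeR log2 fold change 1.66 ± 0.27 SE, adjusted p = 0.0154). No skin library overlapped spleen. DESeq2 did not call it (adjusted p = 0.124). The call was also lost in 6 of the 8 fits without 1 library, in which adjusted p ran up to 0.0659, and held without skin replicates 1 or 4. Ppp1r15a, which directs dephosphorylation of eIF2 alpha, stood at 1447 ± 427 and 315 ± 544 CPM, with spleen replicate 4 at 1131 CPM among the skin values. The eIF2 kinase gene Eif2ak2 stood at 0 to 1.10 CPM in skin and 2.39 to 87.2 CPM in spleen and was not called with edgeR (adjusted p = 0.154), though DESeq2 called it lower. DESeq2 also called 2 genes with counts in too few libraries for the edgeR test. Trib3, an Atf4 target, was higher (103, 0, 0 and 45.8 CPM in skin, 0 in all spleen libraries). Gcn1l1, an activator of the kinase GCN2, was lower (0 in all skin libraries, 36.3, 0, 0 and 48.2 CPM in spleen). Of 13 genes of this list tested with DESeq2, 1 was higher and 2 lower, beside 2.2% and 12.8% of all genes. Counts this small do not set the list apart.

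None of 15 tested genes of mTORC1 and MNK signalling, which act on 4E-BPs and eIF4E, was called with edgeR (median -0.38), and 2, Rheb and Mknk2, had an unadjusted p under 0.05. Rheb, the activator of mTORC1, stood at 350.1, 346, 341 and 393 CPM in skin and at 89.3, 4.67, 97.5 and 95.7 CPM in spleen (edgeR adjusted p = 0.177). Mknk2, a kinase of eIF4E, stood at 298, 47.0, 164 and 276 CPM in skin and at 36.0, 7.402, 8.27 and 10.3 CPM in spleen (edgeR adjusted p = 0.102). Neither overlapped between the tissues. Rheb alone of the list was called with limma-voom (adjusted p = 0.0415). Of 18 genes tested with DESeq2, 1 was called higher (Mknk2, adjusted p = 0.00889) and 2 lower (Rraga and Tsc1). Rraga and Tsc1 had no count in skin and were tested because of their spleen counts alone. Over all genes DESeq2 called 2.2% higher and 12.8% lower, and limma-voom 2.99% and 7.23%. Counts this small do not set the list apart. Rps6ka1, at 335 ± 223 and 399.6 ± 73.9 CPM, overlapped. Of 11 tested elongation and termination genes none was called with edgeR either (median 0.10), 2 (Eef1a1 and Eef2) had an unadjusted p under 0.05, DESeq2 called 0, and limma-voom called Eef1a1 higher and Eef1e1 lower. Eef1a1, which brings aminoacyl-tRNA to the ribosome, stood at 4897 ± 756 and 3516 ± 519 CPM and Eef2 at 1069 ± 282 and 639 ± 190 CPM. Etf1, the release factor, stood at 577, 283, 515 and 422 CPM in skin and at 73.6, 0, 92.1 and 109.9 CPM in spleen, without overlap (edgeR adjusted p = 0.534).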

How the data were processed

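The authors deposited expected counts, 1 per gene and library, which need not be whole because reads that match several genes are divided. RSEM, FastQC, DESeq2 1.16.1 and the build mm9 are named in the submitters' processing notes, without their roles. Neither an aligner nor an annotation release is given in the sources used here. Per the labels' protocols, cDNA was made with SMART-Seq v4, which does not mark the strand, and read as 75 bp pairs, so overlapping and antisense genes cannot be told apart.

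Expected counts were rounded and tested with edgeR 4.0.16 (limma 3.58.1, R 4.3.3): filterByExpr left 6920 genes, TMM set the scale, and tissue was the only term of a robust quasi-likelihood fit, with Benjamini-Hochberg adjustment over all genes at 0.05. The common dispersion was 2.94, with 6 residual degrees of freedom. CPM use TMM-scaled library sizes. A floor of 3 counts is 0.292 to 0.454 CPM per library and covers counting error only. On simulated counts with known changes, the fit called them at a low dispersion and did not at one near that of these data, so genes not called may still differ. No 2 replicates agreed within sampling noise (chi-square per degree of freedom of at least 112). The number of unused per-sample columns was 0.

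Members and lists were chosen with earlier results of these data known. Values per library are given for members called or without overlap, for the most abundant of each factor, and for other genes chosen after their values were seen. Of 25 mTORC1 and MNK symbols 22 were in the table, and 5 members were matched to the annotation by an older symbol. Alternatives were other scalings, filters, rounding and tests (DESeq2 1.42.0, limma-voom), a replicate block, removal of the 50 most abundant genes and each library left out. A filter on a count in 3 or more libraries per tissue was chosen after seeing the data.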

Additional observations from a re-analysis of the deposited data

Results flagged for a closer look

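Levels and family shares of members made 54 groups of 4 libraries of 1 tissue. Of these groups, 9 held a library far from the other 3 (by Dixon's gap-to-range ratio). Chance gives about 5% for independent normal values. Levels with many zeros and shares of 1 family are not such values, so 9 of 54 cannot be set against that rate. Skin replicate 1 had the lowest Eif4e share of its family (18.1%, next 56.6%) and the highest Eif4e3 share (72.6%, next 32.7%). Skin replicate 2 had the highest Eif2s2 level (528 CPM, next 185 CPM) and the lowest Eif1 share of Eif1 and Eif1b (91.3%, next 98.9%). Skin replicate 4 had the lowest Eif2s1 level (129 CPM, next 204 CPM) and the single Eif2b1 value above 0 (30.5 CPM). Spleen replicate 2 had the highest Eif4e2 level (357 CPM, next 194 CPM), Eif4e2 share (57.2%, next 36.9%) and Eif3c level (418 CPM, next 262 CPM). The cause was not tested.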

How the results depend on the processing

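With RLE or upper-quartile scaling, a filter of 5 CPM in 4 libraries, or rounding down, the calls were again Eif1 and Eif4e3 higher and Eif4g3 lower. In these settings 1.84% to 2.11% of all genes were higher and 3.44% to 4.2% lower. Without a filter 1 member was higher (Eif1) and 0 lower, beside 0.849% and 0.42% of all genes. With DESeq2 1 of 48 was higher (Eif4e3) and 2 lower (Eif2b3 and Eif4g3), beside 2.2% and 12.8% of all genes. With limma-voom 3 were higher (Eif5 added) and 2 lower (Eif2b1 added), beside 2.99% and 7.23%. With the 50 most abundant genes removed, Eif1 among them, 0 were higher and 0 lower, and 0.815% and 0.698% of the other genes were called. Without 1 library in turn, 1 member was higher each time (Eif1) and 0 to 1 lower (Eif2b1 without skin replicate 4), while 0.632% to 1.30% of all genes were higher and 0.232% to 1.41% lower. With a filter on a count in 3 or more libraries per tissue, 39 members were tested. Eif1 and Eif4e3 were higher and 0 members lower, beside 2.59% and 1.17% of all genes. Eif4g3 and Eif2b1 had too few skin counts to pass this filter, so it could not call them lower. The cause of these moves was not tested.

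The replicate block left 1 member higher (Eif1, adjusted p = 0.0179) and 0 lower, with 0.52% of genes higher and 0.202% lower. Same-numbered libraries did not deviate together (r = 0.00175 to 0.0105 across genes, and 2 of 8 libraries correlated best with their own number). The spread between replicates was large (common dispersion 2.94) and could hide a shared source. These values therefore do not decide whether the numbers pair libraries, and the labels do not say. Over 21 genes and all alternatives, 323 fold changes kept direction and side of the threshold, 43 lost and 5 gained a call, and 4 reversed. Only Eif1, Eif4e3, Eif4g3, Atf4 and Ddx3x, called in the main fit, could lose a call, and most of the 323 were of uncalled genes. Eif1 kept its call in 8 of 8 fits without 1 library and in 8 of 10 other alternatives. Eif4e3 kept it in 0 of 8 and 7 of 10, and Eif4g3 in 0 of 8 and 6 of 10. A gene removed before a fit counts as not called there. The reversals were of uncalled genes. Eif2s2 was at -0.26 without skin replicate 2, in a range to 0.66 without 1 library. Eif3c was at -0.042 and -0.021 without skin replicates 3 and 4, in a range to 0.28. Eif3h was at 0.018 without spleen replicate 2, in a range from -0.33. By counting error alone, a count of 0 allows up to 0.292 to 0.454 CPM. Replicates of 1 tissue varied far more, as with Eif1b at 0, 273, 0 and 34.3 CPM in skin. A count of 0 therefore sets no upper limit on the level in the cells, and absence was not shown.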
